A study of Homo sapiens with 24 samples.

Results

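The dual-specificity MAP kinase phosphatases were followed across the treatments of HT29 cells, an established line of human colon adenocarcinoma. The members were taken by gene symbol as DUSP1, DUSP2, DUSP4, DUSP5, DUSP6, DUSP7, DUSP8, DUSP9, DUSP10 and DUSP16, with every probe that carries one of these names and is no control. They were 10 of 36337 names and 12 of 50599 probes on the array. All 10 genes and all 12 probes passed the filter on dim signals, so that they were among the 20703 genes tested. DUSP7 and DUSP10 passed it only through treated groups in which their levels were higher than in untreated cells. Cells were left untreated (NT) or were exposed during 6 h to C3/C2 (propionate at 30 mM plus acetate at 15 mM), to SN (a diluted culture supernatant of Propionibacterium freudenreichii, which holds both acids as its main metabolites), to TRAIL (at 100 ng/ml, together with anti-Flag antibody at 2 µg/ml), to TRAIL+C3/C2 or to TRAIL+SN. Each of the 6 groups had 4 arrays, 24 in all, and every group was of the same cell line. The methods describe 2 independent experiments, each in duplicate, so that the 4 arrays of a group stem from fewer than 4 independent experiments, and neither labels nor methods say which arrays belong together. The p-values measure the spread between these arrays, which may in part be technical.

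These phosphatases remove phosphate from the threonine and the tyrosine of the activation loop of ERK, JNK and p38, and so switch MAP kinases off. DUSP1, DUSP2, DUSP4 and DUSP5 lie in the nucleus and are known as genes that growth factors and stress switch on within minutes to hours, DUSP6, DUSP7 and DUSP9 lie in the cytoplasm and prefer ERK, and DUSP8, DUSP10 and DUSP16 prefer JNK and p38. DUSP6 is a familiar readout of ERK activity in colon cancer cells, because ERK itself drives its transcription.

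Promoter sequences are shown for DUSP1, DUSP8 and DUSP10, chosen with their values seen. They are the members with a printable promoter that were called higher at 2-fold in all treatments with C3/C2 or SN. DUSP7, which was also higher in all of these, was called in TRAIL+C3/C2 only. A promoter was searched for 8 of the 10 members, and DUSP4 and DUSP5 are only named. Each is the stretch of 250 bases before the start site on the strand of the gene, from RefSeq on GRCh38.p14. Capitals mark the cAMP response element TGACGTCA and its shorter core TGACG, searched on both strands, so that each full element also holds the core on both strands.
DUSP1: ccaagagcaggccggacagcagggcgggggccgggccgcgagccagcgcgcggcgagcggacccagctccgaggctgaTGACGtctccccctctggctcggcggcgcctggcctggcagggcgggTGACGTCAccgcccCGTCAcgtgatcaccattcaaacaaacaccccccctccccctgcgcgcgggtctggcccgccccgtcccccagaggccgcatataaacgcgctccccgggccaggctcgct
DUSP8: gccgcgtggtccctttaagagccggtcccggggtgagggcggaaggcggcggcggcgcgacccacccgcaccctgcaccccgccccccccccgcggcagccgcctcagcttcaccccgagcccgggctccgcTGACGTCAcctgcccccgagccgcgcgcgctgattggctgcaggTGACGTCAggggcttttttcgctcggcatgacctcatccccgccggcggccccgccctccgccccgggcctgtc
DUSP10: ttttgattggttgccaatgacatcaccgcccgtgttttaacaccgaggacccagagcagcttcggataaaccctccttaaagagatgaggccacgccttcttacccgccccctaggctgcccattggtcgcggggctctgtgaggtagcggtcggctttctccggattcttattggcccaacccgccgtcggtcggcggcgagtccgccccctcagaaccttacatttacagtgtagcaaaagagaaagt
These windows are chr5:172771196-172771445, chr11:1572272-1572521 and chr1:221742090-221742339, all on the minus strand. The DUSP1 window held 1 full element, 118 to 125 bases before the start site, and the DUSP8 window held 2, at 111 to 118 and at 67 to 74 bases before it. The full element was found in 1.65% of the 35116 promoters of this length in the table, and the core in 21.2%. Of the 4 cores in the DUSP1 window 2 lay outside the full element, while all 4 of the DUSP8 window lay within its elements. The DUSP10 window held neither. The GC box letters GGGCGG, on either strand, were found 4 times in the DUSP1 window, 4 times in that of DUSP8 and 3 times in that of DUSP10, and in 42.6% of promoters at least once. Among the other members with a promoter in the table, DUSP2, DUSP6, DUSP7, DUSP9 and DUSP16 held no core, and DUSP7 held 1 match to the NF-kB site, which 9.96% of promoters hold. The AP-1 letters TGANTCA (6.57% of promoters) and the CArG box (1.16%) had no match in any of these 8 windows. A match is a description of letters, and binding was not measured.

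A level is given here as the log2 intensity of a probe relative to the 75th percentile of its array, so that 0 is the 75th percentile and 1 unit is a 2-fold step. Levels of different probes are not compared with each other. The 75th percentile itself had a group median of 883 intensity units in NT, 820 in C3/C2, 759 in SN, 663 in TRAIL, and 503 and 520 in its co-treatments with C3/C2 and SN, so that it was lower in every treatment, and its part in the results was not tested beyond the other scalings. No spot was saturated. NT and C3/C2 lay together on slides 1 and 2, SN and TRAIL on slide 3, and both co-treatments on slide 4, so that slide and treatment cannot be told apart except for C3/C2 against NT and for the co-treatments against each other. All 9 markers of colon epithelium (such as CDX2, VIL1 and CDH17) were well above background on every array, and COL1A2, COL3A1 and DCN of the 5 fibroblast markers on none, while LUM was on all 24 and COL1A1 on 16. The leukocyte markers PTPRC and CD14 and all 3 endothelial markers were also marked as well above background on every array of this cell line, and CD3E on 10. Calls needed at least a 2-fold difference and an adjusted p under 0.05 (limma with eBayes, Benjamini-Hochberg over all 20703 genes, 4 arrays a group). The scaling matters for the balance of all calls: when arrays were scaled on their median instead, the calls against NT went from 2784 higher and 1279 lower to 2001 and 2346 with C3/C2, from 3364 and 1643 to 2291 and 3136 with TRAIL+C3/C2, and from 3323 and 2098 to 2664 and 2869 with TRAIL+SN. With spike-in probes they were 2338 and 1774 with C3/C2, 85 and 742 with TRAIL (155 and 452 with the 75th percentile), 1559 and 6074 with TRAIL+C3/C2 and 1905 and 4782 with TRAIL+SN. Quantile normalization gave 2732 and 2285 with TRAIL+C3/C2.

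Against NT, members were called higher and none was called lower at 2-fold. C3/C2 raised 4 of the 10 members (DUSP1, DUSP5, DUSP8 and DUSP10), while 13.4% of all genes were called higher and 6.18% lower. SN raised these 4 as well, against 14.2% of all genes higher and 9.75% lower. TRAIL alone raised DUSP5 only, against 0.749% of all genes higher and 2.18% lower. TRAIL+C3/C2 raised 5 members, DUSP7 besides the former 4, against 16.2% higher and 7.94% lower, and TRAIL+SN raised DUSP1, DUSP5, DUSP8 and DUSP10, against 16.1% higher and 10.1% lower. All 5 comparisons share the NT arrays. DUSP7 and DUSP10 passed the filter only through groups where they were high, so that their calls are no independent support. The median change of the 10 members on the log2 scale was 0.59 for C3/C2 and 0.70 for SN, 0.38 for TRAIL alone, and 1.07 and 0.92 for the co-treatments with C3/C2 and SN, while the median over all genes tested was 0.08, -0.02, 0.03, 0.10 and 0.04. A probe reads the RNA of a whole culture, in which a change in every cell and a larger change in some cells cannot be told apart.

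**Figure D1:**
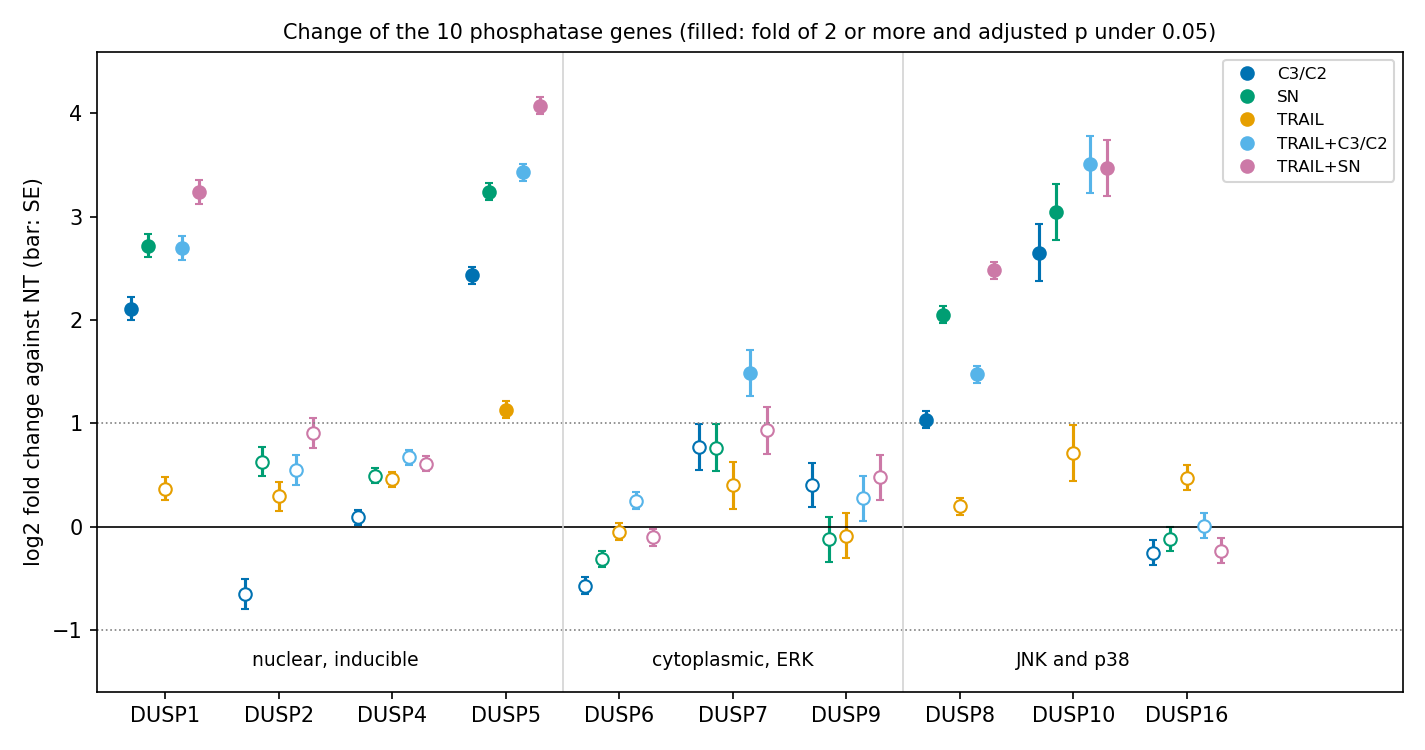
Log2 fold change against NT (vertical axis, bars are the SE) of the 10 genes for the 5 treatments (colours), in the order of their compartment and preferred kinases. Filled points passed a fold of 2 and an adjusted p under 0.05, and the dotted lines mark a fold of 2. DUSP1, DUSP5, DUSP8 and DUSP10 are filled in every treatment with C3/C2 or SN, and DUSP5 alone is filled for TRAIL.

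DUSP5, a nuclear phosphatase specific for ERK, rose 16.8-fold with TRAIL+SN and was the only member called in all 5 treatments. No member with a measured level in NT rose by more, while DUSP10, which was below background there, has no exact fold. The DUSP5 probe lies at chr10:112270900-112270959 on hg19, the build of the probe positions in the files, which do not say whether it is in an exon or a UTR. The level on the 4 NT arrays was -2.31, -2.53, -2.46 and -2.27. With C3/C2 it was 0.13, 0.04, -0.02 and 0.01, and with SN 0.87, 0.78, 0.85 and 0.90. These 3 groups lay apart, and each spanned a small part of the distance between them. TRAIL alone gave -1.40, -1.43, -1.27 and -0.94, TRAIL+C3/C2 1.02, 1.09, 1.01 and 1.03, and TRAIL+SN 1.77, 1.75, 1.63 and 1.58. No array of any treatment overlapped with NT, and the order of the group means ran upwards from NT over TRAIL, C3/C2, SN and the co-treatment with C3/C2 to that with SN, with no overlap between neighbours. The log2 change against NT had an SE of 0.08 throughout (limma). It was 2.43 for C3/C2 (5.40-fold, adjusted p = 8.38e-16) and 3.24 for SN (9.46-fold, adjusted p = 7.49e-18). For TRAIL alone it was 1.13 (2.19-fold, adjusted p = 4.09e-09), and for the co-treatments 3.43 with the acids (10.8-fold, adjusted p = 2.48e-18) and 4.07 with SN (adjusted p = 1.76e-19). The TRAIL call did not hold with the spike-in scaling (0.88) or with normexp background correction (0.92). TRAIL added to the acids gave a further log2 change of 1.00 over C3/C2 alone, 1.996-fold and so just under the threshold (adjusted p = 1.66e-08), and added to SN it gave 0.83 over SN alone (adjusted p = 8.05e-07). The interaction, by which a co-treatment departs from both single changes added up on the log2 scale, was -0.14 with C3/C2 (95% interval -0.39 to 0.11) and -0.30 with SN (-0.55 to -0.05, adjusted p = 0.0744).

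DUSP1, an immediate early gene whose product acts on p38, JNK and ERK, rose in the 4 treatments with C3/C2 or SN and less than 2-fold with TRAIL alone. Its probe, at chr5:172195296-172195355 on hg19, was spotted 10 times on each array, and the spots of 1 array had an SD between 0.034 and 0.134 on the log2 scale. The NT arrays gave levels of -1.41, -1.41, -1.13 and -1.20, and the TRAIL arrays -1.16, -1.02, -0.76 and -0.73. These groups overlapped, since the lowest TRAIL array lay below the highest NT array. C3/C2 gave 0.65, 0.66, 1.00 and 0.99, and SN 1.25, 1.25, 1.65 and 1.59. TRAIL+C3/C2 gave 1.32, 1.30, 1.48 and 1.54 and TRAIL+SN 1.91, 1.89, 1.98 and 2.01. The levels with SN and with TRAIL+C3/C2 overlapped, and every array with TRAIL+SN lay above all others. The log2 changes against NT had an SE of 0.11 each (limma). C3/C2 gave 2.11 (4.32-fold, adjusted p = 1.04e-12) and SN 2.72 (6.59-fold, adjusted p = 1.38e-14). The co-treatments gave 2.69 with the acids (6.47-fold, adjusted p = 1.62e-14) and 3.24 with SN (9.43-fold, adjusted p = 7.25e-16), and TRAIL alone 0.37 (1.29-fold, adjusted p = 0.0174).

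**Figure D2:**
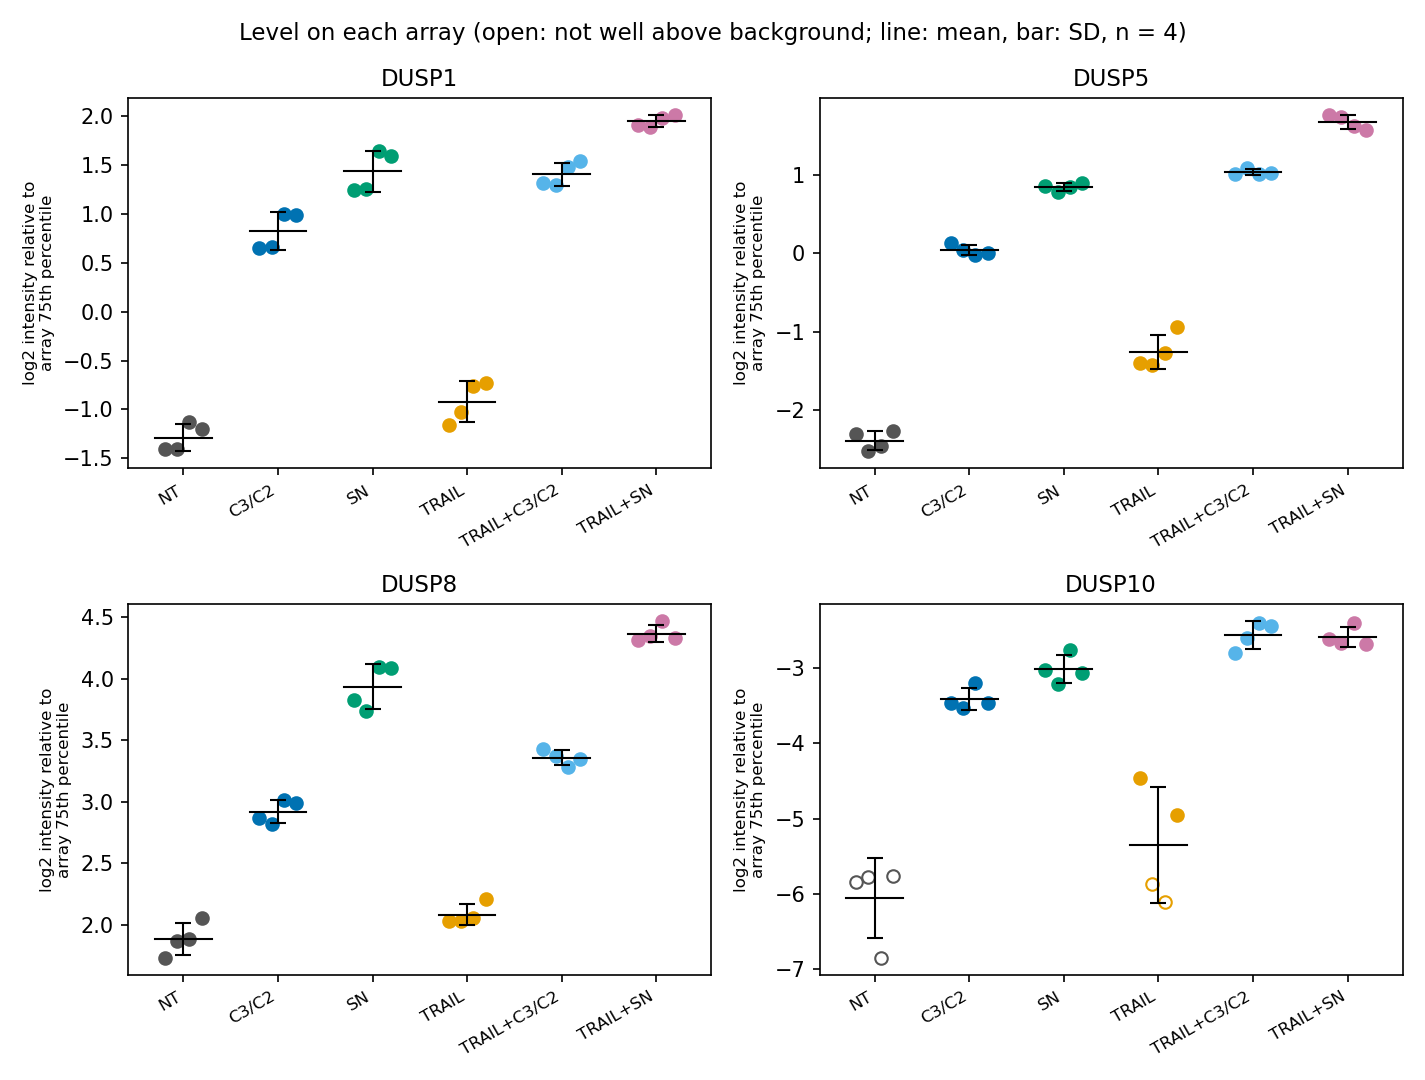
Level of DUSP1, DUSP5, DUSP8 and DUSP10 on each of the 24 arrays by group (vertical axis, log2 intensity over the array's 75th percentile). Points run from replicate 1 to 4 from left to right in a group, lines are means, bars are SD (n = 4), and open points were not well above background. DUSP10 is open on all 4 NT arrays and on 2 of 4 TRAIL arrays, and DUSP5 shows 6 separate groups.

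DUSP2, an inducible nuclear phosphatase best known from lymphocytes, was lower with the acids and higher with the supernatant, each by less than 2-fold. Its probe lies at chr2:96809903-96809962 on hg19. NT gave -0.33, -0.62, -0.69 and -0.55, C3/C2 gave -1.19, -1.23, -1.19 and -1.18, and SN gave -0.13, -0.11, 0.28 and 0.30. All C3/C2 arrays lay below NT and all SN arrays above it. The log2 change was -0.65 with C3/C2 (SE 0.14, adjusted p = 0.000434, limma) and 0.63 with SN (SE 0.14, adjusted p = 0.000507, limma), each under 2-fold. SN against C3/C2 directly was a rise of 1.28 (adjusted p = 3.61e-07), which was called. TRAIL+C3/C2 gave -0.17, -0.34, 0.25 and 0.27, above every C3/C2 array, and this rise of 1.20 over C3/C2 was called too (adjusted p = 1.63e-06), though not with the spike-in scaling (0.62). TRAIL+SN gave 0.25, 0.09, 0.48 and 0.61, which was 0.27 above SN with overlapping arrays (adjusted p = 0.189). TRAIL alone gave -0.17, -0.11, -0.23 and -0.50 and did not pass against NT (0.29, adjusted p = 0.121).

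DUSP4, the remaining nuclear member, which acts on ERK and JNK, varied little. Its probe lies at chr8:29194382-29194441 on hg19. NT gave 0.23, 0.08, -0.07 and -0.01 and C3/C2 0.26, 0.09, 0.19 and 0.07, which overlapped (0.09, 95% interval -0.06 to 0.25). The means were 0.55 ± 0.07 in SN and 0.52 ± 0.13 in TRAIL, and 0.73 ± 0.08 and 0.67 ± 0.07 in the co-treatments with C3/C2 and SN (SD, n = 4), with every array above NT. The log2 changes were 0.49, 0.46, 0.67 and 0.61, with adjusted p between 4.61e-08 and 6.9e-05 (limma, SE 0.07) and none at 2-fold. Before scaling, the median intensity was 916 in NT, 1102 in SN and 941 in TRAIL, and 839 and 823 in these co-treatments. The rises with TRAIL and in the co-treatments thus depend on the scaling. With spike-in scaling the change with TRAIL+C3/C2 turned to -0.056, as that of DUSP2 turned from 0.55 to -0.18.

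DUSP6, the cytoplasmic phosphatase that ERK activity induces, was lower with C3/C2 and with SN by less than 2-fold, with every array below NT. Its probe lies at chr12:89742144-89742203 on hg19. NT gave 3.28, 3.24, 3.30 and 3.24, C3/C2 gave 2.74, 2.54, 2.73 and 2.75, and SN gave 2.75, 2.83, 3.18 and 3.05. The log2 change was -0.57 with C3/C2 (adjusted p = 2.58e-06) and -0.31 with SN (adjusted p = 0.00173, limma, SE 0.08 in each). TRAIL alone gave 3.21, 3.21, 3.23 and 3.22, a change of -0.05 (95% interval -0.22 to 0.12, adjusted p = 0.703), though all 4 arrays lay just below the lowest NT array. TRAIL+C3/C2 gave 3.43, 3.44, 3.57 and 3.62, all above NT and C3/C2. This was 0.25 above NT (adjusted p = 0.00875), which turned to -0.094 with the array median and to -0.48 with spike-in scaling, and 0.82 above C3/C2 (adjusted p = 1.32e-07). TRAIL+SN gave 3.18, 2.97, 3.28 and 3.21, which did not pass against NT (-0.10, adjusted p = 0.261). On the same arrays with C3/C2, DUSP1 and DUSP5 were higher than in NT and DUSP6 was lower.

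**Figure D3:**
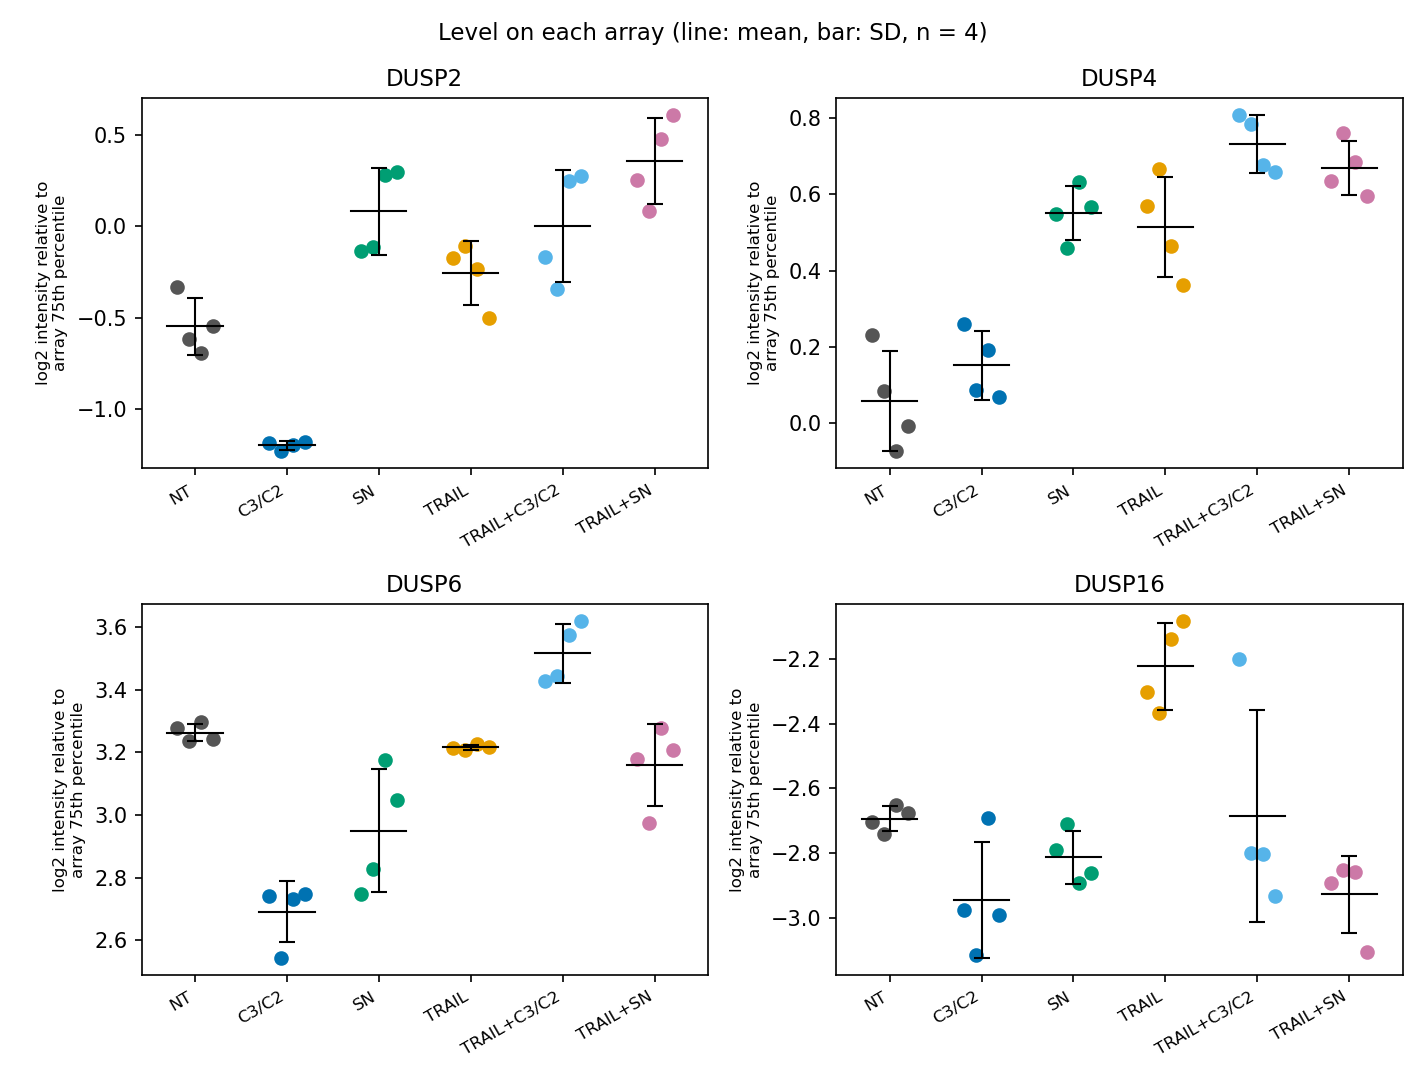
Level of DUSP2, DUSP4, DUSP6 and DUSP16 on each of the 24 arrays by group (vertical axis, log2 intensity over the array's 75th percentile, each panel on its own scale). Points run from replicate 1 to 4 from left to right in a group, lines are means and bars are SD (n = 4). The means of DUSP2 and DUSP6 are lowest in C3/C2, and the mean of DUSP16 is highest in TRAIL, where replicate 1 of TRAIL+C3/C2 also lies at -2.20.

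DUSP7 and DUSP9, the other cytoplasmic members, gave dim signals. DUSP7 (probe within chr3:52088352-52089886 on hg19) passed the background criterion on 2 of 4 arrays in NT, 1 of 4 in TRAIL, 3 of 4 in TRAIL+SN and on all arrays of the other groups. NT gave -5.40, -5.48, -6.18 and -5.28 and TRAIL+C3/C2 -3.70, -3.94, -4.40 and -4.36. The groups did not overlap and the change of 1.49 was called (SE 0.23, 2.81-fold, adjusted p = 5.53e-06, limma), but not with spike-in scaling (0.76) or with normexp background correction (0.92), and the fold rests in part on the 2 NT arrays under the criterion. The values of DUSP7 under 2-fold were 0.77 for both C3/C2 (adjusted p = 0.00529) and SN (adjusted p = 0.00501), while TRAIL+SN gave 0.93 (adjusted p = 0.000951), which passed 2-fold at 1.04 without NT replicate 4. DUSP9 (chrX:152915952-152916011) was well above background on every array, at levels from -5.26 to -3.86. Its changes against NT lay between -0.12 and 0.48 with a smallest adjusted p of 0.0557, and all its groups overlapped with NT.

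Among the members that prefer JNK and p38, DUSP10 and DUSP8 were called higher in the 4 treatments with C3/C2 or SN, and DUSP16 in none. DUSP10 (probe at chr1:221875773-221875832 on hg19) had a signal under the background criterion on all 4 NT arrays, which gave -5.84, -5.78, -6.85 and -5.77. It was measured on all arrays with C3/C2 (-3.46, -3.53, -3.19 and -3.46) and SN (-3.02, -3.21, -2.76 and -3.06). The co-treatments gave -2.80, -2.59, -2.39 and -2.43 with TRAIL+C3/C2 and -2.61, -2.67, -2.39 and -2.68 with TRAIL+SN. Set against the lowest level that counted as well above background on each NT array, the rise was 4.88-fold for C3/C2 and 6.42-fold for SN. In the co-treatments it was 8.81-fold and 8.62-fold. The adjusted p were 2.55e-08, 2.48e-09, 2.68e-10 and 2.78e-10 (limma, from fitted log2 changes of 2.65, 3.05, 3.51 and 3.47). The probe passed the filter only through these 4 groups, and the fit took the NT signals under the criterion as levels. These adjusted p are thus no independent support for the rise. The lowest such level of any probe gives the largest fold, so that these values are no strict lower bounds. These folds hold for the processed signal only. With normexp background correction the fitted log2 change of DUSP10 was 0.88 for C3/C2, under 2-fold, 1.17 for SN, and 1.60 and 1.56 in the co-treatments, each below these folds. With TRAIL alone 2 of 4 arrays were above background, at -4.46 and -4.95, and the other 2 were at -5.88 and -6.11, within the range of NT (fitted log2 change 0.71, adjusted p = 0.0495, limma), so that no fold is given. DUSP10 averaged -3.01 ± 0.19 in SN and -3.41 ± 0.15 in C3/C2 (SD, n = 4), a difference of 0.40 that did not pass in the fit (95% interval -0.18 to 0.97), whose spread is shared with the dim NT and TRAIL arrays. The co-treatments differed by -0.03 (-0.60 to 0.54).

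DUSP8 rose in the 4 treatments with C3/C2 or SN. At its representing probe it was called higher with SN than with the acids both without and with TRAIL. This probe, the brightest of 3, lies at chr11:1575282-1575341 on hg19. NT gave 1.73, 1.87, 1.88 and 2.05, C3/C2 gave 2.86, 2.82, 3.01 and 2.99, and SN gave 3.82, 3.73, 4.10 and 4.09. TRAIL gave 2.03, 2.03, 2.06 and 2.21, TRAIL+C3/C2 gave 3.43, 3.37, 3.28 and 3.34, and TRAIL+SN gave 4.31, 4.34, 4.47 and 4.33. Apart from NT and TRAIL, no groups overlapped. The log2 change had an SE of 0.08 (limma) and was 1.04 for C3/C2 (2.05-fold, adjusted p = 4e-10) and 2.05 for SN (4.15-fold, adjusted p = 5.29e-15). With TRAIL present it was 1.47 for the acids (2.78-fold, adjusted p = 1.11e-12) and 2.48 for the supernatant (5.58-fold, adjusted p = 2.11e-16). The call with C3/C2 stood close to the threshold and did not hold with the array median (0.74), with spike-in scaling (0.88), with the mean of the 3 probes (0.94) or without NT replicate 1 (0.99), and that with TRAIL+C3/C2 did not hold with spike-in scaling (0.74).

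The 3 DUSP8 probes had the same sign in these 4 treatments and differed in size. The gene lies on the minus strand, so that higher coordinates are nearer to its 5′ end. The middle probe (chr11:1576310-1576369) changed by 1.41 for C3/C2 and 2.78 for SN, and by 2.24 and 3.01 when TRAIL was added to each, more than the representing probe, and was called in each. The probe nearest to the 5′ end (within chr11:1579141-1579394) gave 0.36, 0.59, 0.73 and 0.63 and was called in none, though its arrays lay above NT in all 4. All 3 probes were well above background on every array. From the representing probe to the 5′ end, SN against C3/C2 gave 1.02, 1.37 and 0.22, the last not passing (adjusted p = 0.0502, limma). TRAIL+SN against TRAIL+C3/C2 gave 1.01, 0.77 and -0.10, and only the representing probe was called. The last had the other sign and did not pass (adjusted p = 0.393, limma).

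**Figure D4:**
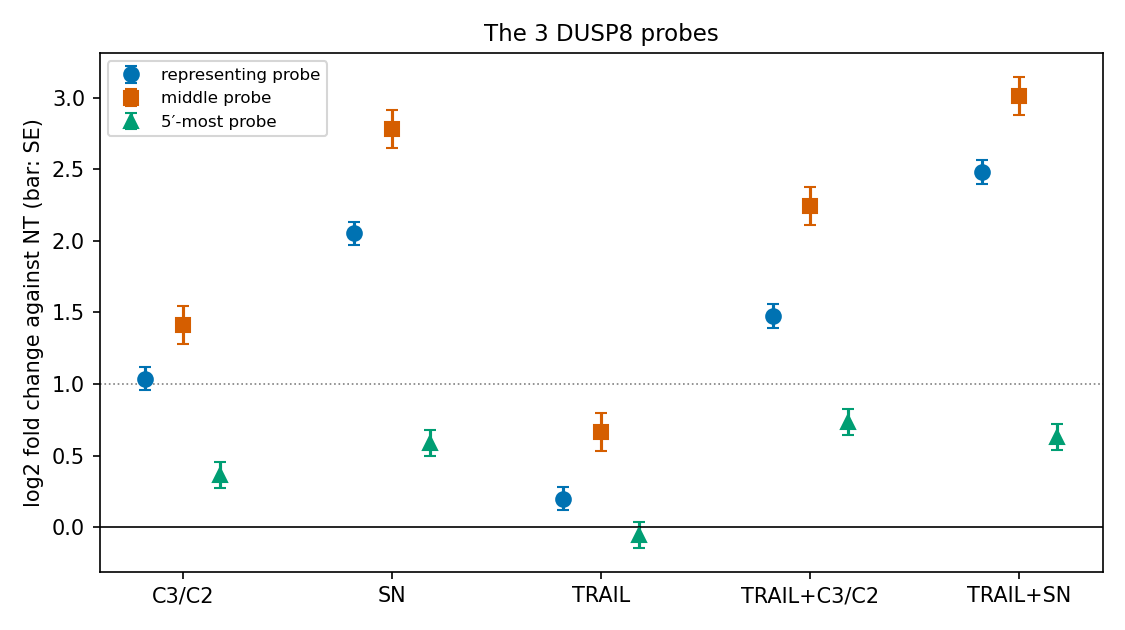
Log2 fold change against NT (vertical axis, bars are the SE) at the 3 DUSP8 probes for the 5 treatments. The dotted line marks a fold of 2, which the probe nearest to the 5′ end did not reach in any treatment, while the middle probe reached 3.01 with TRAIL+SN.

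DUSP16 (chr12:12629370-12629429 on hg19) was higher with TRAIL alone by less than 2-fold. TRAIL gave -2.30, -2.37, -2.14 and -2.08 and NT -2.70, -2.74, -2.65 and -2.68, a change of 0.47 with no overlap, under 2-fold (SE 0.12, adjusted p = 0.00454, limma). In the other treatments, C3/C2 and SN without and then with TRAIL, the changes were -0.25, -0.12, 0.01 and -0.23, with adjusted p between 0.0756 and 0.949. The value for TRAIL+C3/C2 depended on the scaling and was -0.34 with the array median (adjusted p = 0.0193) and -0.72 with spike-in scaling (adjusted p = 5.9e-05, limma). Before scaling, the median intensity was 135 in NT, 141 in TRAIL, 71 in TRAIL+C3/C2 and 67 in TRAIL+SN. The values for TRAIL and TRAIL+SN thus depend on the scaling too. With TRAIL+C3/C2 replicate 1 stood at -2.20 and the other 3 between -2.93 and -2.80.

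The supernatant was compared with its acids directly, and 2 of 10 members were higher with SN than with C3/C2, DUSP2 and DUSP8, while 1.28% of all genes were called higher and 4.41% lower (265 and 914 genes, or 495 and 632 with the array median, 570 and 581 with spike-in scaling and 364 and 747 with quantile normalization). DUSP5 was 0.81 higher with SN (adjusted p = 1.5e-07) and DUSP1 0.61 higher (adjusted p = 0.000193), both under 2-fold with no overlap of arrays, and with spike-in scaling DUSP5 was called too (1.03, 3 members in all). DUSP8 was 1.02 higher, 2.02-fold (adjusted p = 5.88e-09), a call that was lost with quantile normalization (0.98), with the mean of the 3 probes (0.87) and when C3/C2 replicate 1 or 2 or SN replicate 3 or 4 was left out (0.96 to 1.00). DUSP2, at 2.43-fold, kept its call in every alternative run. SN lay on another slide than C3/C2, so that slide and treatment cannot be told apart here, while the co-treatments shared a slide. In the presence of TRAIL, 1 member was called higher with SN than with C3/C2, DUSP8 at 2.01-fold (adjusted p = 8.58e-09), against 0.976% of all genes higher and 2.56% lower. That call was lost with the mean of the 3 probes (0.56) and without TRAIL+C3/C2 replicate 3 or TRAIL+SN replicate 3 (0.98 and 0.97). The 202 higher and 529 lower genes of that comparison became 363 and 348 with the array median, 464 and 289 with spike-in scaling and 311 and 432 with quantile normalization.

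Each comparison of a co-treatment with C3/C2 or SN alone was also one between slides. Adding TRAIL to a treatment raised 1 member with the acids, DUSP2, while 1.59% of all genes were called higher and 2.13% lower (330 and 442 genes, or 133 and 2035 with spike-in scaling). It raised no member with SN, where 0.908% of all genes were called higher and 0.164% lower (188 and 34 genes, or 50 and 672 with spike-in scaling and 151 and 64 with quantile normalization), while DUSP1, DUSP5 and DUSP8 passed the adjusted p under 2-fold (0.52, 0.83 and 0.43, limma). With spike-in scaling the values of DUSP1 and DUSP8 over SN turned to -0.053 and -0.14, and that of DUSP8 over C3/C2, 0.44, turned to -0.14. The change with TRAIL in the presence of C3/C2 and SN was tested as an interaction, and no member was called by limma there, against 0.493% of all genes higher and 0.164% lower for C3/C2 and 2.76% and 0.333% for SN. With the array median those calls went from 102 higher and 34 lower to 74 and 64 for C3/C2 and from 572 and 69 to 439 and 161 for SN, and with spike-in scaling to 44 and 109 and to 325 and 329. Under 2-fold, 4 interactions passed the adjusted p (limma). With no minimum fold change, 361 of all 20703 genes passed higher and 235 lower for C3/C2. For SN they were 2268 and 2526, the latter 12.2% of all genes, so that 2 of 10 members lower there is no result about the members. DUSP6 exceeded the sum with TRAIL+C3/C2 by 0.87 (SE 0.11, adjusted p = 0.00011) and DUSP2 by 0.91 (SE 0.20, adjusted p = 0.0146), and with spike-in scaling neither passed (0.54 and 0.58). DUSP4 and DUSP16 fell short of the sum with TRAIL+SN, at -0.34 (adjusted p = 0.0212) and -0.59 (adjusted p = 0.0163), the latter not with normexp background correction (-0.24). The 4 groups of an interaction lay on different slides, so that slide and interaction cannot be told apart.

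C3/C2 could be set against NT within a slide. On slide 1 (1 array each) and slide 2 (3 arrays each) the log2 change was 2.44 and 2.43 for DUSP5, 2.06 and 2.13 for DUSP1, 1.13 and 1.00 for DUSP8, 2.39 and 2.74 for DUSP10, -0.85 and -0.58 for DUSP2, and -0.54 and -0.58 for DUSP6. The sign was the same on both slides for each of these 6 genes.

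The kinases that these phosphatases act on were taken from lists of the cascade, described by counts and medians only. Whether calls in these and the following lists hold with the other scalings was not tested. Some stood close to 2-fold, such as MAPK12 with C3/C2 (1.05) and MAPK15 with SN (1.01). The array median moved the median of all genes with C3/C2 from 0.08 to -0.22 and with SN from -0.02 to -0.15. Spike-in scaling moved these to -0.08 and 0.05, and that of TRAIL+C3/C2 from 0.10 to -0.63. Of 13 MAP kinases, 11 were tested, and 3 were called higher and none lower in each treatment that held C3/C2 or SN, with none called for TRAIL. Over all genes, 13.4%, 14.2%, 16.2% and 16.1% were called higher and 6.18%, 9.75%, 7.94% and 10.1% lower with C3/C2, SN and their co-treatments in that order, and counts of a list near these shares, such as 1 of 7 or 2 of 12, are no result about it. MAPK11, the p38 beta kinase, rose by 2.84 with C3/C2 and 2.79 with SN (adjusted p = 4.32e-12 and 4.54e-12, limma), from a level of -1.34 ± 0.23 in NT to 1.50 ± 0.13 and 1.46 ± 0.22 (SD, n = 4). MAPK15, an atypical ERK, rose by 1.47 with C3/C2 and 1.76 with TRAIL+C3/C2 (limma, adjusted p = 3.44e-06 and 2.45e-07), and MAPK12, p38 gamma, by 1.05 and 1.24 (adjusted p = 0.00142 and 0.000245). MAPK15 also rose by 1.01 with SN and 1.21 with TRAIL+SN (limma, adjusted p = 0.000256 and 3.51e-05). With SN and TRAIL+SN the third gene called was not MAPK12 (0.85 and 0.29) but MAPK8, a JNK, named here after its values were seen (1.15 and 1.24, adjusted p = 9.91e-09 and 2.58e-09, limma). The median of the list was 0.73 with C3/C2 and 0.56 with SN, against 0.08 and -0.02 over all genes.

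Upstream, 1 of 7 MAP kinase kinases was called higher in SN and in both co-treatments, and 2 were called lower with each co-treatment. MAP2K3, which activates p38, rose by 1.50 in SN and by 1.60 and 1.98 in the co-treatments with C3/C2 and SN. MAP2K6, also a p38 activator, fell by 1.17 in the co-treatment of TRAIL and the acids and by 1.47 in that of TRAIL and SN, and MAP2K5, the activator of ERK5, fell by 1.24 and by 1.03. Of 12 kinases above these, 2 were called higher with C3/C2 and with SN and 3 with each co-treatment, and 2, 1, 2 and 1 were called lower. MAP3K14, the kinase of the alternative NF-kB pathway, rose by 1.66 for C3/C2 and 2.00 for SN, and by 2.56 and 2.70 in the respective co-treatments. MAP3K3 rose by 1.02, 1.01, 1.24 and 1.15, and ARAF, a RAF kinase, changed by -1.26, -1.48, -1.02 and -1.62. The calls of MAP3K3 with C3/C2 and SN and of ARAF with TRAIL+C3/C2 stood close to the threshold and were not tested with the other scalings. TRAIL alone called none of either list.

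Of 14 genes used as readouts of ERK, none was called higher and 1 lower with C3/C2, while 5 were higher and 1 lower with SN, 3 and 1 with TRAIL+C3/C2 and 6 and 1 with TRAIL+SN. Over all genes the shares higher and lower were 13.4% and 6.18%, 14.2% and 9.75%, 16.2% and 7.94%, and 16.1% and 10.1%, in that order. The list had a median of -0.34 with C3/C2 and 0.58 with SN. EGR1, an immediate early transcription factor, rose by 1.69 with SN and 2.81 with TRAIL+SN and gave -0.56 with C3/C2 (adjusted p = 0.149), with a wide spread on the SN arrays (2.43 ± 0.95, SD, n = 4). EPHA2, a receptor tyrosine kinase, rose by 1.33 with SN and gave 0.08 with C3/C2 (adjusted p = 0.423). IER3, a stress response gene, rose by 1.03 in SN, close to the threshold, and by 2.51 and 2.63 in the co-treatments. Between SN and C3/C2 directly, 4 of the 14 were called higher and none lower, among them EGR1 (2.25) and EPHA2 (1.26). Of all genes, 1.28% were called higher and 4.41% lower there. SN and C3/C2 lay on different slides, so that slide and treatment cannot be told apart.

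Related phosphatases outside the family were counted in the same way. PTPRR, a tyrosine phosphatase that binds MAP kinases, rose by 1.27 with C3/C2 (adjusted p = 6.91e-05) and was the only one called of 2 tested in its list of 3. Of 15 further genes, the atypical dual-specificity phosphatases and their inactive relative STYXL1, 13 were tested. With SN 2 were called higher, DUSP13 (1.18) and DUSP14 (1.09), and 1 lower, against 14.2% of all genes higher and 9.75% lower. With C3/C2 none was called higher and 1 lower, against 13.4% and 6.18%. The counts with SN are near the shares and no result about the list. DUSP13 was dim, at -5.50 ± 0.55 in NT (SD, n = 4), and well above background on 3 of 4 NT arrays. DUSP19 was not above background on any array with SN, TRAIL+C3/C2 or TRAIL+SN. Its adjusted p against NT were 1.26e-05, 0.00037 and 1.57e-06 (limma). Set against the lowest level that counted as well above background there, it was 3.13-fold, 2.32-fold and 2.36-fold lower than in NT. As for DUSP10, these folds are no strict lower bounds. The median of this list was -0.56 with C3/C2 and -0.40 with SN, below the medians of all genes.

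**Figure D5:**
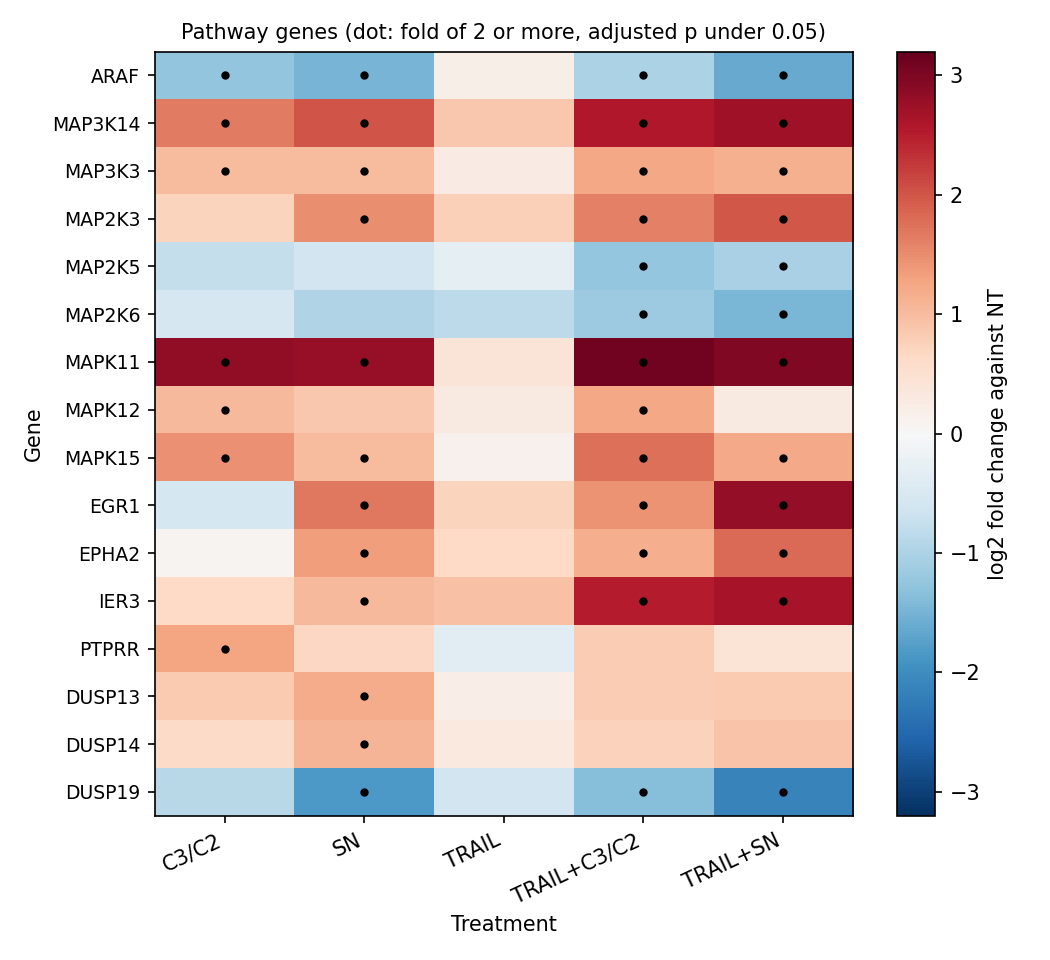
Log2 fold change against NT (colour scale) of the genes named from the cascade, readout and phosphatase lists (vertical axis) for the 5 treatments (horizontal axis). Dots mark a fold of 2 or more with an adjusted p under 0.05. MAPK11, MAPK15, MAP3K14 and MAP3K3, which rose, and ARAF, which fell, are dotted in all 4 treatments with C3/C2 or SN. The dots were not tested with the other scalings, and those of MAPK15 and MAP3K3 with SN stand for changes close to a fold of 2. No gene is dotted for TRAIL, and DUSP19 was not above background on any array with SN, TRAIL+C3/C2 or TRAIL+SN.

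Over the 24 arrays, the level of DUSP5 followed that of DUSP1 (Pearson r = 0.98), DUSP10 (0.95) and DUSP8 (0.95), while that of DUSP6 had an r of -0.07 with DUSP5 and -0.11 with DUSP1. These are descriptions over 24 arrays that share groups, slides and scaling. Members and entries named only by a code, such as LOC, LINC or KIAA, were left out of the search for like genes and of its counts. The genes whose levels were most like DUSP5 were ABTB2 (r = 0.995), RND1 (r = 0.994) and ARFGAP1 (r = 0.993), with 323 genes above 0.95. For DUSP1 they were CSRNP1 (0.995), ERRFI1 (0.995) and ZSWIM6 (0.993), with 615 genes above 0.95, and for DUSP10 they were NPW (0.975), AHDC1 (0.974) and TCAP (0.970), with 159. CSRNP1 and ERRFI1 are immediate early genes, and ERRFI1 encodes an inhibitor of the EGF receptor. RND1, a small GTPase, rose by 1.33 for TRAIL, 2.75 for C3/C2, 3.67 for SN, and 4.10 and 4.55 for the co-treatments with C3/C2 and SN, in the order of DUSP5.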

How the data were processed

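RNA of 24 samples was read on 1-colour Agilent arrays, and the authors deposited the scanner output of Feature Extraction 10.7.3.1, whose processed signal is an intensity already corrected for background. A deposited table of normalized values was found to hold intensities scaled to each array's median, and was used as an alternative. Its 24 detection flag columns and the authors' own comparisons were not used. Outlier spots (190 to 315 an array) were left out and spots of a probe averaged. Levels were log2 intensities minus the 75th percentile of the array. A probe was kept when well above background on all 4 arrays of a group, and a gene was represented by its brightest probe. Groups were fitted together with limma 3.58.1 in R 4.3.3, with Benjamini-Hochberg adjustment over 20703 genes, and calls needed a fold of 2 and an adjusted p under 0.05. The fit was tested on simulated data. With 4 arrays a group the median SE of a change against NT was 0.108, and the number of arrays limits the precision. The genes named are all 10 members with every probe, from each list at most the 3 called genes with the largest changes, and the 3 genes most like each of the 3 members with the widest range of group means. Members and lists were chosen with earlier results of these data known. Alternatives were other scalings, background correction, filters, probe summaries, slide and replicate blocks and leaving out each array. Figures were drawn with matplotlib 3.10.9.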

Additional observations from a re-analysis of the deposited data

Results flagged for a closer look

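Among 72 groups of 4 arrays, 6 held 1 array that stood apart from the other 3, and chance alone gives such arrays in about 5% of groups. These were DUSP6 with C3/C2, replicate 2 (a level of 2.54), DUSP7 with TRAIL+SN, replicate 1 (-4.19), DUSP8 with TRAIL, replicate 4 (2.21), DUSP9 with SN, replicate 3 (-5.26), DUSP10 in NT, replicate 3 (-6.85, not well above background), and DUSP16 with TRAIL+SN, replicate 4 (-3.11).

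The change with TRAIL differed with and without a co-treatment in 4 tests of the interaction (limma). With C3/C2 it was larger than without for DUSP2 by 0.91 (adjusted p = 0.0146) and for DUSP6 by 0.87 (adjusted p = 0.00011). With SN it was smaller for DUSP4, at -0.34 (adjusted p = 0.0212), and for DUSP16, at -0.59 (adjusted p = 0.0163). Of all 20703 genes, 361 passed the adjusted p higher and 235 lower in the interaction with C3/C2, and 2268 and 2526 in that with SN. The latter is 12.2% of all genes, so that 2 of 10 members lower with SN is no result about the members. With spike-in scaling DUSP2 and DUSP6 did not pass, and DUSP16 did not with normexp background correction. All 4 were under 2-fold, and the groups lay on different slides, so that slide and interaction cannot be told apart.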

How the results depend on the processing

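With spike-in scaling, the members called higher against NT were 0 with TRAIL (1 with the 75th percentile) and 3 with TRAIL+C3/C2 (5), and 0 for TRAIL+C3/C2 against C3/C2 (1). With normexp background correction 0 were called with TRAIL. When probes had to be well above background on all 24 arrays, 3 were called with TRAIL+C3/C2, since DUSP7 and DUSP10 were then not tested. Without DUSP10, 3 were then called with C3/C2, SN and TRAIL+SN (4 in each with the main filter). For SN against C3/C2, 1 was called with quantile normalization and 1 with the mean of a gene's probes (2), and for TRAIL+SN against TRAIL+C3/C2 the mean of probes gave 0 (1). With no minimum fold change, against NT 7 were called higher in SN, 5 in TRAIL, and 8 and 7 in its co-treatments with C3/C2 and SN, and otherwise 6 for SN against C3/C2, 3 for TRAIL+SN against TRAIL+C3/C2, 8 for TRAIL+C3/C2 against C3/C2, 3 for TRAIL+SN against SN and 2 for the interaction of TRAIL and C3/C2, and called lower were 2 with C3/C2, 1 with SN, 1 for TRAIL+SN against TRAIL+C3/C2 and 2 for the interaction of TRAIL and SN. C3/C2 gave 5 higher. Of all genes, 35.2% were then higher for C3/C2, 35.1% for SN, 20.3% for TRAIL, and 39.9% and 37.4% for its co-treatments. The shares were 21.7%, 15.9%, 21.3%, 12.2% and 1.74% in the further comparisons with higher calls and 27.7%, 34.2%, 21.7% and 12.2% in those with lower calls, each in the order above. The cause of the other moves was not tested.

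Leaving out 1 array gave 3 calls for C3/C2 without NT replicate 1 (DUSP8 lost) and 5 for TRAIL+SN without NT replicate 4 (DUSP7 gained), with 4 otherwise in both, 1 to 2 calls for SN against C3/C2 (1 without C3/C2 replicate 1 or 2 or SN replicate 3 or 4), 1 to 2 for TRAIL+C3/C2 against C3/C2 (2 when replicate 1 of C3/C2 or replicate 1, 3 or 4 of TRAIL+C3/C2 was left out, where DUSP5 passed 2-fold), 0 to 1 for TRAIL+SN against TRAIL+C3/C2 (0 without TRAIL+C3/C2 or TRAIL+SN replicate 3) and 0 to 1 for the interaction of TRAIL and C3/C2 (1 without TRAIL+C3/C2 replicate 2, DUSP2).

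Of the member changes that passed the adjusted p, 6 turned sign in some alternative. DUSP6 with TRAIL+C3/C2 against NT was -0.094 with the array median and in the deposited table and -0.48 with spike-in scaling, the latter past the adjusted p in the opposite direction (0.000414, limma). With spike-in scaling DUSP4 and DUSP2 with TRAIL+C3/C2 were -0.056 and -0.18, DUSP8 was -0.14 for TRAIL+C3/C2 against C3/C2 and -0.14 for TRAIL+SN against SN, and DUSP1 was -0.053 for the latter. Of changes that had not passed, some passed with the other sign. With the array median and in the deposited table these were DUSP4 for C3/C2 (-0.21) and DUSP16 for TRAIL+C3/C2 (-0.34). With spike-in scaling they were DUSP16 (-0.72) and DUSP9 (-0.46) for TRAIL+C3/C2, DUSP16 for TRAIL+C3/C2 against C3/C2 (-0.32), and DUSP4 (-0.45) and DUSP6 (-0.36) for TRAIL+SN against SN, and with normexp DUSP9 for TRAIL+C3/C2 against C3/C2 (0.37). The spike-in scaling also moved the median of all genes to -0.63 and -0.47 for the co-treatments with C3/C2 and SN (0.10 and 0.04 with the 75th percentile). The array median moved it to between -0.25 and 0.13 over the 5 treatments.

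With the replicate block the counts were as without it, 4 for C3/C2 and 4 for SN, 1 for TRAIL, and 5 and 4 for the co-treatments, and they did not move in the other comparisons either. The labels do not say that a number is shared between groups, nor do the methods, which give 2 experiments in duplicate. Of 60 pairs of arrays with the same number in different groups, 57 had deviations from their group means that correlated over 0.1 (lowest 0.062), and 23 of 24 arrays correlated best with an array of their own number, as a hint from the data. A block of numbers 1 and 2 against 3 and 4, chosen after seeing the data, changed no call of a member. For signals near background, as those of DUSP7, DUSP9 and DUSP10, the array limits what can be told.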

Other observations

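DUSP1 was higher on replicates 3 and 4 than on replicates 1 and 2, without overlap in any of the 6 groups, by 0.10 to 0.37 on the log2 scale. DUSP6 and DUSP8 showed this order in 4 of 6 groups. Of all 20703 genes tested, 650 (3.14%) lay higher on replicates 3 and 4 in all 6 groups and 983 (4.75%) lay lower. The split was chosen after the values of DUSP1 were seen.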
